A study of Mus musculus with 2 samples.

Results

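The 50 genes described here are 38 immediate early genes and 12 heat-shock genes, chosen by their symbols from a deposited table of FPKM (fragments per kilobase of transcript, set against all mapped fragments, so a level corrected for transcript length) in which 21590 genes could be analysed. All 50 had a value in both libraries, and none was listed at 0. The libraries came from lingual epithelium of newborn (P0) mice of the genotype Sox2GFP, in which green fluorescent protein is made from the *Sox2* locus and so marks cells by their *Sox2* activity. Pups were pooled, the epithelium was digested with pancreatin, trypsin, collagenase II and elastase, and dead and autofluorescent cells were gated out. About 100000 cells with high GFP (GFP-high) and about 100000 with low GFP (GFP-low) were then sorted, and 1 stranded mRNA library was made from each population. The GFP-high and GFP-low gates were cut from a continuous range of brightness, both groups carry the reporter, and both went through the same digestion. With 1 library per population there is no replicate check on any difference below, no p-value is given, and a ratio describes these libraries.

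Immediate early genes are transcribed within minutes of a stimulus without new protein synthesis, from promoters held ready by factors such as SRF and CREB, and many of their products are transcription factors (FOS, JUN, EGR, NR4A) or inhibitors that end the response (MAP kinase phosphatases, mRNA decay factors, IκBα). Heat-shock genes encode chaperones that hold or refold proteins, and HSF1 switches them on by binding heat shock elements, which are repeats of the unit GAA in alternating orientation. Both groups respond to growth factors and to stress, and both are known to be induced while tissue is dissociated into single cells. Undissociated epithelium was not analysed here, so the part of digestion and sorting in the levels below was not tested.

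As a check on the sort, *Sox2* was at 112 FPKM in the GFP-high library and 59.0 FPKM in the GFP-low library, 1.90-fold higher in GFP-high. Basal keratinocyte markers summed to 26344 FPKM in GFP-high and 33348 in GFP-low over 9 genes, with *Krt5* at 9667 and 10422 FPKM, so the defining genes of the labelled epithelium were abundant in both libraries. The labels give about 75M reads per sample, and the deposited file holds no counts. From the spacing of low FPKM values, the depth was put at roughly 27.5M fragments for GFP-high and 35.1M for GFP-low. There 67.2% and 66.2% of the low values used fell within 0.15 of a whole read (30% if values were spread evenly). The depths were picked for the highest such share, so 30% is too low a comparison. Other depths came near, 32.8M for GFP-high (58.4%) and 31.2M for GFP-low (56.9%), so the depths are approximate and their order is uncertain. At 27.5M and 35.1M fragments *Dusp2*, the member with the lowest FPKM in GFP-high, stands for about 204 reads in GFP-high and 300 in GFP-low.

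Many of the immediate early and heat-shock genes were abundant in both populations, with 24 of the 50 among the 1000 highest genes of both libraries, and the lowest members lay near the middle of all genes (lowest percentile 50.8 in GFP-high and 50.9 in GFP-low). Of the 50, 47 reached 5 FPKM in both libraries, against 46.4% of all genes, and 30 reached 100 FPKM in both, against 7.80% of all genes. Their median FPKM was 181 in the GFP-high library against 156 in the other, their median percentile among all genes was 95.9 and 95.1, and together they held 2.06% and 1.94% of the summed FPKM. *Fos* and *Hsp90ab1* ranked 34 and 31 of all genes in GFP-high and 30 and 29 in GFP-low. Among the 100 highest genes were 5 members in GFP-high and 4 in GFP-low, and 4 of these were the same genes. The 12 heat-shock genes had the higher median, 600 FPKM in GFP-high and 394 in GFP-low, and the 38 immediate early genes had medians of 147 and 142 FPKM.

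**Figure D1:**
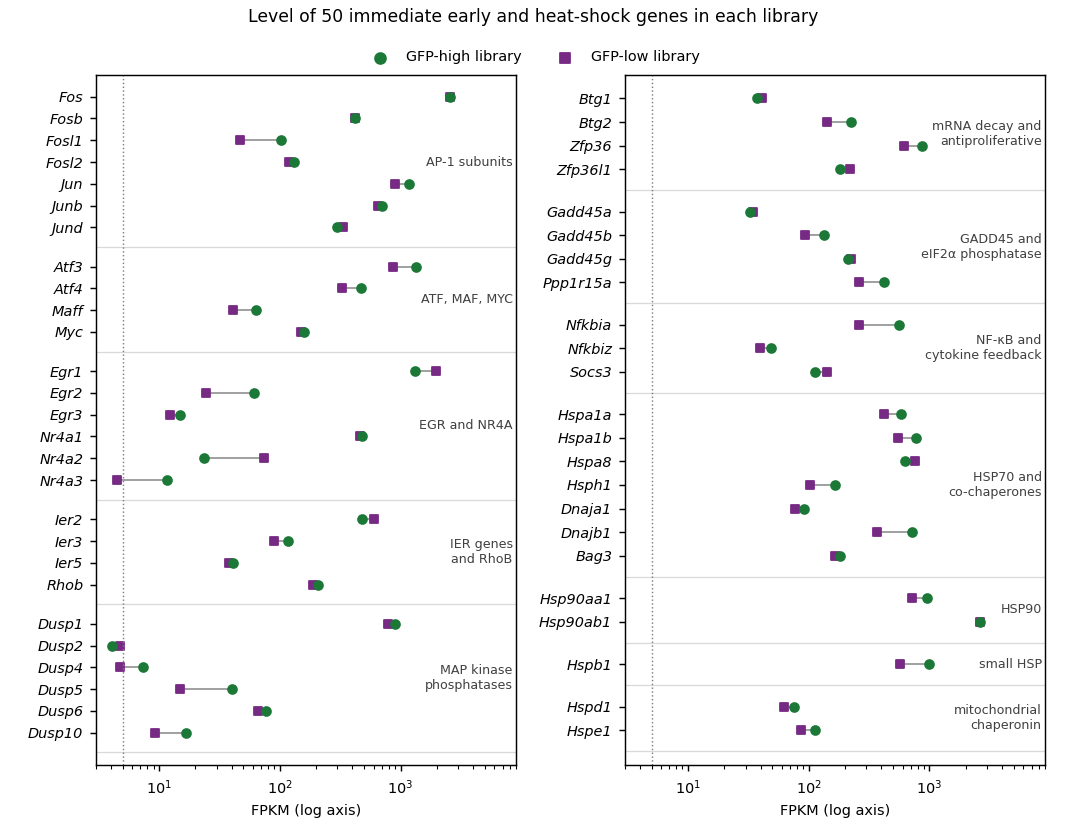
FPKM of each of the 50 genes on a log axis in the GFP-high library (green circles) and the GFP-low library (purple squares), grouped by role, with a grey line joining the values of a gene and a dotted line at 5 FPKM. Most pairs lie close together between 10 and 1000 FPKM, *Fos* and *Hsp90ab1* sit between 2588 and 2642 FPKM in both libraries, and the widest gaps belong to *Nr4a2*, *Dusp5*, *Nr4a3* and *Egr2*.

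Most of the genes were at similar levels in the 2 populations, and those that were not were mostly higher in GFP-high. A gene was called higher in a population where its FPKM was at least 5 there and at least 1.5-fold that of the other, as the study's results apply the rule. The study's methods instead ask for 5 FPKM in each sample, by which 12 members were called higher in GFP-high, without *Nr4a3* and *Dusp4*, and 2 in GFP-low. With 5 FPKM asked only of the higher library, the rule used here, 14 of the 50 genes (28%) were called higher in GFP-high. In GFP-low 2 (4%), *Egr1* and *Nr4a2*, were called higher, while 34 were not called. Among all genes 4.72% were called higher in GFP-high and 4.44% in GFP-low. Among genes at 5 FPKM or more in either library these shares were 9.48% and 8.90%. Of the 2150 genes at 100 FPKM or more in either library, a level nearer to that of these members, 216 were called higher in GFP-high and 121 (5.63%) in GFP-low. Without regard to size, 38 members (76%) had the higher FPKM in GFP-high and 12 in GFP-low, beside 44.6% of genes at 5 FPKM or more and 50.1% of genes at 100 FPKM or more in either library that were higher in GFP-high.

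The middle 50% of the ratios was wider among the members than among all genes. A larger share of the members reached 2-fold, while their SD was smaller. On the scale of log2(GFP-high FPKM / GFP-low FPKM), the median of the 50 genes was 0.26 and the middle 50% ran from 0.01 to 0.64, an interquartile range of 0.63. Over the 12059 genes at 1 FPKM or more in both libraries the median was -0.04 and the interquartile range 0.47. The SD had the other order, 0.54 for the members and 0.61 for all these genes. Ratios ran from -1.67 to 1.43 for the members and from -5.10 to 5.26 for all these genes. A range widens with the number of genes, so these ranges cannot be compared. A ratio under 1.5-fold in either direction was found for 68% of the members and 80.7% of these genes, and a ratio of 2-fold or more for 12% and 8.30%. The 12 heat-shock genes had a median of 0.39 with an interquartile range of 0.32, and none of them reached 2-fold, while the 38 immediate early genes had a median of 0.20 with an interquartile range of 0.71 and held the 6 members past 2-fold. The threshold passed through a run of close values: just inside it were *Egr1* (1.5-fold), *Maff* (1.55-fold) and *Atf3* (1.56-fold), and just outside it *Gadd45b* (1.44-fold), *Atf4* (1.43-fold), *Hspa1b* (1.40-fold) and *Zfp36* (1.40-fold).

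The summed FPKM of the GFP-high library was 1.07 times that of the GFP-low library. Dividing each library by its sum (TPM) lowers every log2 ratio by 0.10, which left 9 members called higher in GFP-high and 2 in GFP-low and put 34 of the 50 on the higher side in GFP-high. The median log2 ratio was then 0.17 for all members, 0.11 for the immediate early genes and 0.30 for the heat-shock genes, and -0.14 for all genes. On that scale *Atf3*, *Maff*, *Dusp4*, *Btg2* and *Hsph1* were no longer called. The share of calls that were higher in GFP-high was 87.5% of the members called as deposited and 81.8% on the TPM scale, and for all genes 51.6% and 40.3%.

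**Figure D2:**
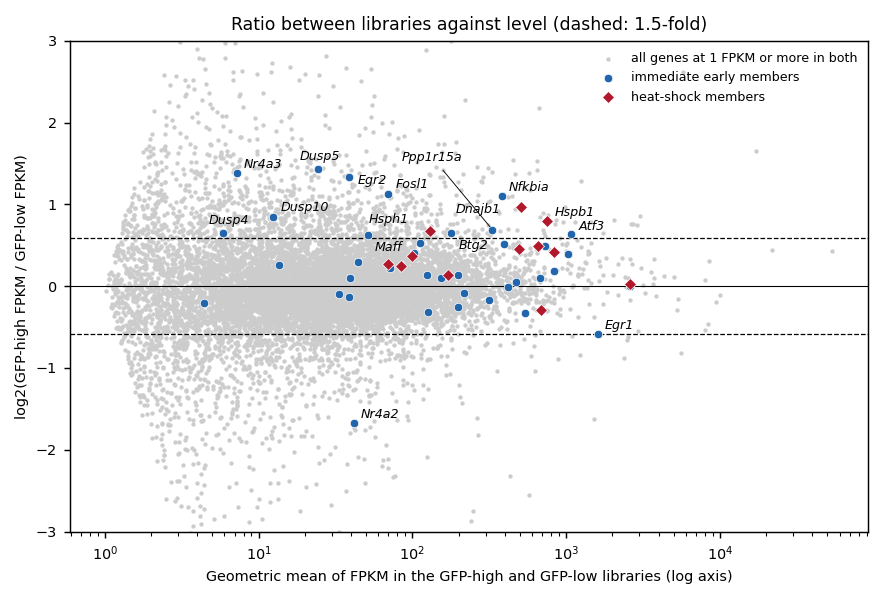
log2 of the GFP-high over the GFP-low FPKM against the geometric mean of both (log axis), for the immediate early members (blue circles), the heat-shock members (red diamonds) and all genes at 1 FPKM or more in both libraries (grey), with the called members named. Dashed lines mark 1.5-fold, and 44 grey genes lie beyond the axis limit of 3; the members sit to the right of most genes, and 14 lie above the upper line and 2 at or below the lower one.

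AP-1 is a dimer of FOS-family and JUN-family proteins, and of the 7 subunit genes 1 (14.3%) was called, higher in GFP-high. Among genes at 5 FPKM or more in either library 9.48% were called higher in GFP-high. With at most 7 genes in a role, the counts by role here and below are too small to set a role apart. *Fos* (ENSMUSG00000021250, chr12:85473890-85477273) was at 2589 FPKM in GFP-high and 2588 FPKM in GFP-low, the closest pair among the 50 genes. *Fosb* was at 418 and 422 FPKM, *Junb* at 696 and 652 FPKM and *Jund*, the subunit that most cells make without a stimulus, at 296 and 333 FPKM, with 48.3% of its 50-nt windows shared with an antisense transcript. *Jun* was at 1181 FPKM in GFP-high and 901 in GFP-low, and *Fosl2*, which encodes FRA2, at 130 and 118 FPKM. These 6 genes differed by less than 1.5-fold, and the direction for *Fos* and *Junb* turned on the TPM scale and that for *Fosb* when libraries were matched by their median ratio.

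*Fosl1* (ENSMUSG00000024912, chr19:5447547-5455946), which encodes FRA1, a FOS protein without a transactivation domain that is abundant in squamous epithelia, was the AP-1 subunit gene called. It was at 103 FPKM in GFP-high and 47.2 FPKM in GFP-low, 2.19-fold higher in GFP-high. Of its 50-nt windows, 52.6% lie where *Ccdc85b* is annotated on the opposite strand, and that gene was at 31.7 FPKM in GFP-high and 35.9 in GFP-low. The libraries keep strand, but whether the counting used it is not given in the sources used here.

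Among the 4 genes of other leucine zipper factors and MYC, 2 were called higher in GFP-high, beside 9.48% of genes at 5 FPKM or more. *Atf3*, a stress-induced factor of the ATF/CREB family, was at 1345 FPKM in GFP-high and 863 in GFP-low, 1.56-fold. *Maff*, a small MAF protein that pairs with other leucine zipper factors, was at 63.7 and 41.1 FPKM, 1.55-fold, and neither call was kept on the TPM scale. *Atf4*, the effector of the integrated stress response, was at 471 and 329 FPKM, 1.43-fold, and *Myc*, the growth regulator, at 160 and 149 FPKM.

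The EGR zinc finger factors and the NR4A orphan nuclear receptors had the widest spread of ratios of any role, an interquartile range of 1.49 over 6 genes, and held both members called higher in GFP-low. *Egr1* (ENSMUSG00000038418, chr18:34859823-34864984) was at 1314 FPKM in GFP-high and 1972 in GFP-low, 1.5-fold higher in GFP-low, at the edge of the rule. Its call was lost when 1 was added to each FPKM and when the libraries were matched by their median ratio. *Egr2* (ENSMUSG00000037868, chr10:67535475-67542188), known for its part in myelination and in hindbrain patterning, had the opposite direction, with 61.3 FPKM in GFP-high and 24.3 in GFP-low, 2.53-fold. *Egr3* was lower than both, at 14.8 and 12.4 FPKM.

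The NR4A receptors bind DNA without a known hormone and are regulated mainly through their amount. *Nr4a1* was at 482 FPKM in GFP-high and 464 in GFP-low, an order that turned on the TPM scale. *Nr4a2* (ENSMUSG00000026826, chr2:57106830-57124003) was at 23.4 FPKM in GFP-high and 74.5 in GFP-low, 3.19-fold higher in GFP-low and the largest ratio of the 50 genes. *Nr4a3* (ENSMUSG00000028341, chr4:48045153-48086447) was at 11.7 and 4.48 FPKM, 2.61-fold higher in GFP-high, a call lost where 5 FPKM was asked of both libraries. One family thus held the member highest in GFP-low by ratio, a member among the highest in GFP-high by ratio and a member with nearly equal levels.

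Some markers of other cells were also higher in the GFP-low library, and their part in the values of *Nr4a2*, *Egr1* and the other members was not tested. Of 8 Schwann lineage markers 6 were called higher in GFP-low, with a sum of 75.5 FPKM in GFP-high and 302 in GFP-low, and *Sox10* was at 0.51 and 42.7 FPKM. Of 11 fibroblast markers 7 were called higher in GFP-low, with a sum of 540 FPKM in GFP-high and 2513 in GFP-low. In the other direction, 4 of 8 suprabasal keratinocyte markers were called higher in GFP-high and 1 in GFP-low, and their sums were 50102 and 16486 FPKM, while 1 of 9 basal markers was called in each direction. Taste cell markers summed to 157 FPKM in GFP-high and 135 in GFP-low over 10 genes, mostly from *Krt18* (99.4 and 75.8 FPKM). Of these markers, *Krt8* was called higher in GFP-high (27.9 and 12.2 FPKM) and *Entpd2* higher in GFP-low (23.7 and 42.2 FPKM). *Pou2f3* was at 3.44 and 3.58 FPKM. *Gnat3* and *Car4* were at 0.92 and 0.87 FPKM in GFP-high and listed at 0 in GFP-low. The other taste markers were higher in GFP-high but under 1 FPKM in both libraries. Endothelial markers summed to 37.0 and 25.9 FPKM over 8 genes (1 called, higher in GFP-high) and skeletal muscle markers to 19.96 and 20.09 FPKM over 7 genes (1 called, higher in GFP-high). Leukocyte and mast cell markers summed to 64.7 and 48.2 FPKM over 10 genes (*Cpa3* and *Tpsb2* called higher in GFP-high, *Cd3e* listed at 0 in GFP-high). Melanocyte markers summed to 18.5 and 3.91 FPKM over 6 genes, mostly from *Mitf*, which was called higher in GFP-high (17.2 and 1.24 FPKM). *Pmel* was also higher in GFP-high (1.09 and 0.73 FPKM), and *Tyr* was listed at 0 in both. The other melanocyte markers were higher in GFP-low: *Dct* (0.23 and 0.91 FPKM), *Tyrp1* (0.04 and 0.88 FPKM) and *Mlana* (0 and 0.15 FPKM). In sorted bulk RNA, fewer cells of a type and less RNA per cell cannot be told apart.

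The 3 IER genes and *Rhob*, small early-response genes and the gene of an inducible small GTPase, held no call. *Ier2* was at 482 FPKM in GFP-high and 604 in GFP-low, *Ier3* at 118 and 89.1 FPKM, *Ier5* at 40.8 and 37.99 FPKM and *Rhob* at 209 and 190 FPKM. *Ier2* was the only one of the 4 with the higher FPKM in GFP-low.

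The dual-specificity phosphatases that switch off MAP kinases covered a wide range of levels, and 3 of 6 were called higher in GFP-high. The share among genes at 5 FPKM or more in either library was 9.48%. *Dusp1* was at 894 FPKM in GFP-high and 786 in GFP-low, and *Dusp6*, the cytoplasmic ERK phosphatase, at 77.0 and 66.2 FPKM. *Dusp5* (ENSMUSG00000034765, chr19:53529109-53542431), a nuclear ERK phosphatase, was at 39.9 and 14.8 FPKM, 2.69-fold, the largest ratio in favour of GFP-high among the 50 genes. *Dusp10*, which acts on p38 and JNK, was at 16.8 and 9.30 FPKM, 1.80-fold. *Dusp4*, another nuclear phosphatase, was at 7.4 and 4.71 FPKM, 1.57-fold, a call lost on the TPM scale, with 1 added to each FPKM, with a minimum of 10 FPKM or with 5 FPKM asked of both libraries. *Dusp2* was at 4.11 and 4.74 FPKM and did not reach 5 FPKM in either library.

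The *Dusp5* promoter is shown because it belongs to the largest of these ratios and holds a pair of adjoining CArG boxes, the sequence to which SRF binds. In the 30 bases at chr19:53529058-53529087 of GRCm38.p6 (plus strand, from RefSeq), capitals mark both boxes.
Dusp5: aatacCCATATTTGGCCTTATATGGgcact
RefSeq promoter windows, 250 bases before to 50 after an annotated start, were found for 40 of the 50 genes, 31 immediate early and 9 heat-shock genes. A CArG box on either strand was found for 3 of the 31 immediate early genes (*Dusp5*, *Egr2* and *Zfp36*) and no heat-shock gene, and for 1.81% of all 27018 genes with a window. *Dusp5* and *Egr2* were called higher in GFP-high and *Zfp36* was not called, beside 28% of all members called higher in GFP-high. A link between the box and the ratio was not tested.

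Of the 4 genes for mRNA decay and antiproliferative proteins, 1 was called, higher in GFP-high, beside 9.48% of genes at 5 FPKM or more. *Btg2*, a regulator of deadenylation and the cell cycle, was at 225 FPKM in GFP-high and 143 in GFP-low, 1.57-fold, a call lost on the TPM scale, and its paralog *Btg1* was at 37.2 and 40.8 FPKM. *Zfp36*, which encodes tristetraprolin, a protein that marks AU-rich mRNAs for decay, was at 868 and 618 FPKM, 1.40-fold. *Zfp36l1* had the other order, at 182 and 218 FPKM, and 54.4% of its 50-nt windows are shared, most with a noncoding transcript on the opposite strand.

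Of the GADD45 genes, which respond to DNA damage and other stress, none was called. *Gadd45a* was at 32.5 FPKM in GFP-high and 34.8 in GFP-low, *Gadd45b* at 134 and 92.9 FPKM, and *Gadd45g* at 210 and 223 FPKM. *Ppp1r15a*, which encodes GADD34, the subunit that directs a phosphatase to eIF2α and so ends the integrated stress response, was at 421 and 261 FPKM, 1.62-fold higher in GFP-high. This call was kept under each alternative but a 2-fold minimum.

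*Btg2* and *Ppp1r15a* are shown together because both were called higher in GFP-high and both hold the palindrome TGACGTCA, the cAMP response element bound by CREB and ATF factors. The stretches lie at chr1:134079186-134079335 (150 bases) and chr7:45526269-45526298 (30 bases) of GRCm38.p6, both on the minus strand and written 5′ to 3′, with the element in capitals.
Btg2: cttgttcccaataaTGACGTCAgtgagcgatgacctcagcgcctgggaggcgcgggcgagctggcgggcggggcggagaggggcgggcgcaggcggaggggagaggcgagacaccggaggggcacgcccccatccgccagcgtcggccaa
Ppp1r15a: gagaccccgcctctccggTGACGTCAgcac
The element was found for 4 of the 31 immediate early genes with a window, *Btg2*, *Dusp1*, *Maff* and *Ppp1r15a*, for none of the 9 heat-shock genes, and for 2.03% of all genes with a window. All but *Dusp1* of these 4 were called higher in GFP-high as deposited, beside 28% of all members. The calls of *Btg2* and *Maff* were lost on the TPM scale, and a link between the element and the ratio was not tested.

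Of the feedback genes of NF-κB and cytokine signalling, *Nfkbia* (ENSMUSG00000021025, chr12:55489410-55492647), which encodes IκBα, the inhibitor that holds NF-κB in the cytoplasm and is itself an NF-κB target, was called. It was at 560 FPKM in GFP-high and 261 in GFP-low, 2.14-fold higher in GFP-high. *Nfkbiz*, a nuclear IκB protein, was at 48.8 and 39.8 FPKM, and *Socs3*, the inhibitor of cytokine receptors that signal through STAT3, had the other order, at 113 and 141 FPKM. The 150 bases before the *Nfkbia* start, chr12:55492648-55492797 on the minus strand of GRCm38.p6, are shown because the gene had the highest level of those past 2-fold, with 1 κB site in capitals.
Nfkbia: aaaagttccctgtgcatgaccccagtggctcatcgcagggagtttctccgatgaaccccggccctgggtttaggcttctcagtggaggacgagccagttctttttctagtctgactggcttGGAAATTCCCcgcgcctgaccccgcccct
A κB site was found for 12 of the 40 members with a window, 8 immediate early and 4 heat-shock genes, and for 9.55% of all genes with a window. The 4 heat-shock genes are *Hspa1a* and *Hspa1b*, with nearly the same promoter, and *Hspd1* and *Hspe1*, whose windows overlap, so they are not separate sequences. Of the 12, *Nfkbia*, *Egr2* and *Maff* were called higher in GFP-high and the others were not called, beside 28% of all members called higher in GFP-high. A link between the κB site and the ratio was not tested. Among further motifs searched, the AP-1 site TGANTCA was found for 2 of the 40 members and for 8.98% of all genes with a window. The TATA box was found for 9 members (15.7% of all genes), the CCAAT box for 22 (41.1%) and the GC box GGGCGG for 33 (38.2%).

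Of the 12 heat-shock genes, 11 had the higher FPKM in GFP-high, where *Hspa8* was the exception and *Hsp90ab1* turned on the TPM scale. That order held for 44.6% of genes at 5 FPKM or more and 50.1% of genes at 100 FPKM or more in either library. Called higher in GFP-high were 3 of 12 (25%), and none in GFP-low. Among genes at 5 FPKM or more in either library 9.48% and 8.90% were called. *Hspa1a* and *Hspa1b* share most of their 50-nt windows, so the 12 are not all separate measurements. The called genes were *Dnajb1*, *Hspb1* and *Hsph1*. *Dnajb1* (ENSMUSG00000005483, chr8:83608193-83612653), the J-domain partner that loads clients onto inducible HSP70, was at 713 FPKM in GFP-high and 365 in GFP-low, 1.95-fold. *Hspb1*, the small heat-shock protein HSP25, was at 996 and 575 FPKM, 1.73-fold. *Hsph1*, an HSP110 nucleotide exchange factor, was at 164 and 103 FPKM, 1.6-fold, and its call was lost on the TPM scale.

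Among the other HSP70 genes and co-chaperones the ratios were smaller. The inducible HSP70 genes *Hspa1a* and *Hspa1b* were at 579 and 777 FPKM in GFP-high and at 422 and 554 FPKM in GFP-low, 1.37-fold and 1.40-fold. *Hspa8*, the constitutive HSP70, was at 622 FPKM in GFP-high and 761 in GFP-low, with 39.4% of its 50-nt windows shared, most with pseudogenes. *Dnaja1*, another J-domain protein, was at 91.2 and 77.1 FPKM, and *Bag3*, the HSP70 co-chaperone of selective autophagy, at 180 and 164 FPKM.

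*Hspa1a* and *Hspa1b* could not be measured apart with reads of 50 nt over most of their length. Of the 50-nt windows of *Hspa1a* 66.3% occur elsewhere, 58.8% in *Hspa1b*, and of those of *Hspa1b* 62.3% occur in *Hspa1a*, so the split of FPKM between them is uncertain. Their promoters were alike as well, with 247 of the 250 bases before the start equal. The last 150 of these bases are shown, chr17:34972157-34972306 for *Hspa1a* and chr17:34959239-34959388 for *Hspa1b* (GRCm38.p6, minus strand), beside those of *Hspb1*, chr5:135887769-135887918 (plus strand). A stretch of 30 bases of *Hspe1*, chr1:55088051-55088080 (plus strand), is shown because its units follow without a gap. Capitals mark heat shock elements of at least 2 units (GAANNTTC or TTCNNGAA).
Hspa1a: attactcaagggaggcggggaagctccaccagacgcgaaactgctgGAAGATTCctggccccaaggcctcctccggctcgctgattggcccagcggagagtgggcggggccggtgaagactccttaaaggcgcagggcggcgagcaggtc
Hspa1b: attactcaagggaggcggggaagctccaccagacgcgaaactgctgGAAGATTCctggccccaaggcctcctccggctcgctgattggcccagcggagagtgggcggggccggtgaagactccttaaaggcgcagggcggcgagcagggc
Hspb1: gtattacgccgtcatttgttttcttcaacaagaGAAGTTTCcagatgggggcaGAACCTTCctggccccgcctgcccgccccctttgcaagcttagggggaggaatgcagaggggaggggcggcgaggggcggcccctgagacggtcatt
Hspe1: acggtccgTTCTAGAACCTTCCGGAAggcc
The printed stretches of *Hspa1a* and *Hspa1b* agree at 149 of 150 bases and hold 1 element each, while *Hspb1* holds 2 elements apart from each other. Elements of 2 units were found for 8 of the 9 heat-shock genes with a window, all but *Dnajb1*, for 3 of the 31 immediate early genes and for 17% of all genes with a window. The longer form of 3 units, in which a further GAA follows GAANNTTC at the same spacing, was found for 3 of the 9 heat-shock genes, for none of the 31 immediate early genes and for 0.663% of all genes with a window. The 3 genes are *Hsph1* and the head-to-head pair *Hspd1* and *Hspe1*, whose overlapping windows hold the same printed stretch, so that 1 sequence counts for both. *Hspa1a* and *Hspa1b* likewise share the element counted for each. *Dnajb1*, the heat-shock gene with the largest ratio, was the one of the 9 without these letters in its windows. *Hspa8*, *Hsp90aa1* and *Hsp90ab1* had no window. A link between the element and the ratio was not tested.

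The cytosolic HSP90 genes, whose products stabilise kinases and steroid receptors, were high and not called. *Hsp90ab1* (ENSMUSG00000023944, chr17:45567775-45573271), the constitutive form, was at 2642 FPKM in GFP-high and 2602 in GFP-low, the highest of the 50 genes in both. *Hsp90aa1*, the inducible form, was at 957 and 718 FPKM, 1.33-fold. The genes of the mitochondrial chaperonin, *Hspd1* (HSP60) and its lid *Hspe1* (HSP10), lie head to head on chromosome 1 and were at 76.0 and 112 FPKM in GFP-high and at 62.9 and 86.9 FPKM in GFP-low. Both of these genes were thus higher in GFP-high by less than 1.5-fold.

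Shared sequence touched the heat-shock genes more than the immediate early genes. At least 20% of the 50-nt windows were found in another gene or pseudogene for 8 of the 12 heat-shock genes and 4 of the 38 immediate early genes, among them 3 called members, *Fosl1*, *Dusp5* and *Hspb1*. For *Hspb1* the share was 50.1%, nearly all in the pseudogene *Hsp25-ps1*, and for *Dusp5* it was 20.5%, with an antisense transcript. Among the 38 members under 20%, 11 were called higher in GFP-high and 2 in GFP-low, and the median log2 ratio was 0.20.

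**Figure D3:**
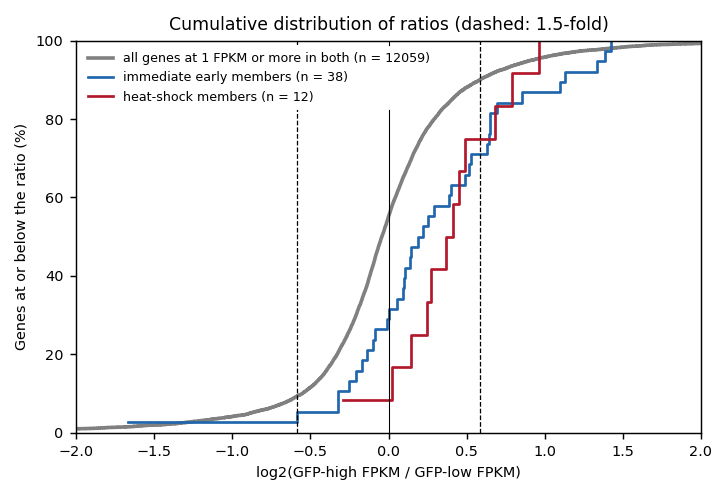
Cumulative share of genes (vertical axis, %) at or below each log2 ratio of GFP-high over GFP-low FPKM (horizontal axis) for the 38 immediate early members (blue), the 12 heat-shock members (red) and the 12059 genes at 1 FPKM or more in both libraries (grey), with dashed lines at 1.5-fold. The members' curves lie to the right of the grey curve through the middle of the plot, the heat-shock curve is the steeper and ends below a log2 ratio of 1, and the immediate early curve reaches from -1.67 to 1.43.

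Lists of related genes outside the 50 had median log2 ratios from -0.01 to 0.24, beside 0.26 for the 50. Of 53 other early-response genes, 8 (15.1%) were called higher in GFP-high and 5 (9.43%) in GFP-low, with a median log2 ratio of 0.02. Among all genes the called shares were 4.72% and 4.44%, and among genes at 5 FPKM or more in either library 9.48% and 8.90%. The 53 include genes under 5 FPKM in both libraries, which could not be called. The 8 with the largest ratios were *Spred1*, an inhibitor of the RAS pathway that was higher in GFP-low (20.5 FPKM in GFP-high and 40.5 in GFP-low), and 7 that were higher in GFP-high. The latter were *Klf6*, a zinc finger factor (446 FPKM in GFP-high and 218 in GFP-low), *Spry1*, an inhibitor of receptor tyrosine kinase signalling (123 and 60.9 FPKM), the EGF receptor ligand *Hbegf* (90.1 and 49.2 FPKM), the kinase *Plk2* (99.6 and 55.7 FPKM), the AP-1 repressor *Jdp2* (15.6 and 8.76 FPKM), the pseudokinase *Trib1* (73.5 and 41.5 FPKM) and *Csrnp1* (102 and 58.1 FPKM). The remaining called genes, outside the naming rule and given after their values were seen, were *Phlda1*, higher in GFP-high (67.2 and 43.1 FPKM), and *Zfp36l2* (65.8 and 114 FPKM), *Id2* (68.3 and 107 FPKM), *Elk3* (10.3 and 16.1 FPKM) and *Ctgf* (16.5 and 25.6 FPKM), higher in GFP-low.

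The median log2 ratio of 24 NF-κB and cytokine early genes was 0.24. Of these, 3 (12.5%) were called, all higher in GFP-high, beside 4.72% of all genes and 9.48% of genes at 5 FPKM or more in either library. The 24 include genes under 5 FPKM in both libraries, which could not be called. The 3 were *Nfkbid*, a nuclear IκB protein (14.9 FPKM in GFP-high and 7.76 in GFP-low), the chemokine *Cxcl1* (51.6 and 28.4 FPKM) and the cytokine signalling inhibitor *Socs1* (9.40 and 5.45 FPKM). Of 32 genes of the integrated stress and unfolded protein responses, 4 (12.5%) were called higher in GFP-high and 1 (3.1%) in GFP-low, with a median of -0.01. Among all genes these shares were 4.72% and 4.44%, and among genes at 5 FPKM or more in either library 9.48% and 8.90%. Called higher in GFP-high were *Sesn2* (15.5 and 5.67 FPKM) and *Trib3* (8.29 and 3.64 FPKM), both targets of ATF4, with *Nupr1* (89.1 and 55.1 FPKM) and *Herpud1*, a gene of endoplasmic reticulum protein degradation (119 and 76.4 FPKM). *Phgdh*, the first enzyme of serine synthesis and also an ATF4 target, was higher in GFP-low (21.4 and 32.9 FPKM).

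Other chaperones were nearly level between the populations. Of 50 further chaperone, co-chaperone and HSF genes, 2 (4%) were called higher in GFP-high and 1 (2%) in GFP-low. The called shares were 4.72% and 4.44% of all genes, and 9.48% and 8.90% of genes at 5 FPKM or more in either library. The median log2 ratio was 0.05, and 93.8% of those at 1 FPKM or more in both libraries lay within 1.5-fold. Of all genes at that level 80.7% did. The J-domain genes *Dnaja4* (90.0 FPKM in GFP-high and 52.9 in GFP-low) and *Dnajb4* (74.0 and 43.4 FPKM) were called higher in GFP-high. The small heat-shock gene *Cryab* was called higher in GFP-low (5.84 and 23.1 FPKM), the direction opposite to that of *Hspb1*.

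**Figure D4:**
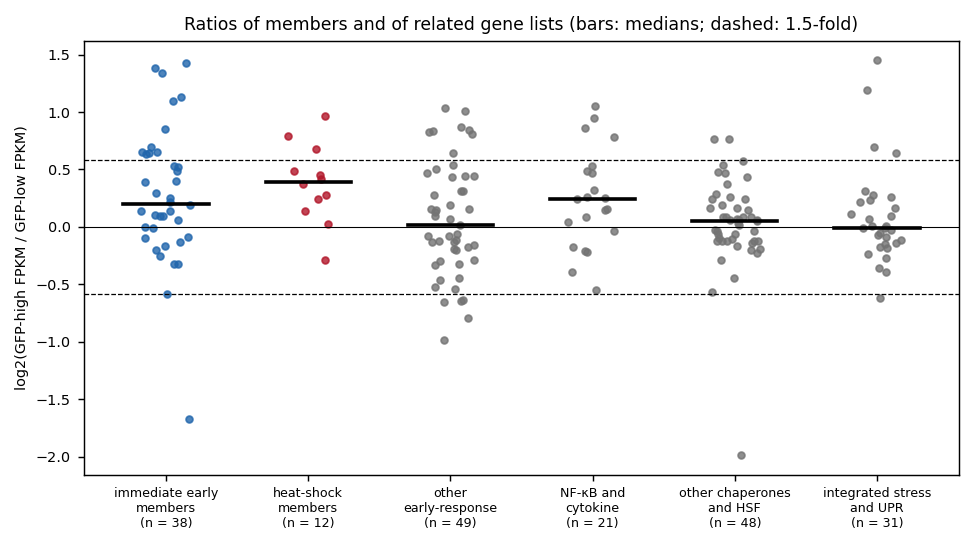
log2 ratio of GFP-high over GFP-low FPKM (vertical axis) for each gene at 1 FPKM or more in both libraries, in the immediate early and heat-shock members and in 4 lists of related genes, with black bars at the medians and dashed lines at 1.5-fold. Points are spread sideways for sight only; the medians are 0.20 and 0.39 for the members and 0.02, 0.24, 0.05 and -0.01 for the lists from left to right.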

How the data were processed

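RNA of 1 GFP-high and 1 GFP-low library was sequenced as stranded single-end reads of 50 nt. The authors trimmed reads with Trimmomatic 0.36, mapped them to mm10 with GSNAP, obtained FPKM with Cufflinks 2.2.1, kept protein-coding genes and deposited these FPKM with 2 decimals. The value columns are named means, and the labels give 1 library per population, so each was read as 1 library. A deposited column of the authors' signed fold between the populations was not used.

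Of 21628 entries, 21 that GENCODE M21 (GRCm38) types as other than protein-coding and 17 without a number in a library were left out, which leaves 21590. Members and gene lists were chosen with earlier results of these data known, so neither counts as independent evidence. Ratios were computed on FPKM as deposited with Python 3.11.15, pandas 2.3.3 and numpy 2.4.6, and tested on simulated data. Medians cover genes at 1 FPKM or more in both libraries. No count test was run, because the values are FPKM from 1 library per population, and no call carries an error.

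The text names all 50 members, the called genes of each of the 4 further lists (the 8 with the largest ratio where more were called), *Sox2* and defining cell type markers. *Cct6a* of the chaperone list had no row with its symbol. Gene positions are from GENCODE M21. Promoter windows are RefSeq's for GRCm38.p6, searched for 9 motifs on both strands: the 2 forms of the heat shock element and the cAMP response element given in the report, the CArG box and κB site by name, the AP-1 site TGANTCA, the TATA box TATAAA, the CCAAT box and the GC box GGGCGG. Shared windows of 50 nt were counted on GENCODE M21 transcripts, either strand.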

Additional observations from a re-analysis of the deposited data

How the results depend on the processing

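No replicate could be left out and no interval between populations can be given, since each has 1 library. No paired analysis was possible because each population has 1 library. The alternatives were FPKM minimums of none, 5 in both and 10, a 2-fold minimum, 1 or 0.1 added to each FPKM, division of each library by its sum (TPM), the GFP-low library brought to the other by the median ratio of 0.973 and, chosen after seeing the data, members with under 20% shared windows. On the TPM scale the median log2 ratio of all members went from 0.26 to 0.17 and that of the immediate early members from 0.20 to 0.11, both moves of over 1.5 times, and that of the heat-shock members from 0.39 to 0.30. These medians stayed above 0 under each alternative, the interquartile range lay between 0.57 and 0.63, and no ratio of a called member turned direction. The 14 members called higher in GFP-high became 5 with a 2-fold minimum and 9 on the TPM scale. The 2 called higher in GFP-low became 1 with a 2-fold minimum, with 1 added and with the median ratio. With a 2-fold minimum, called genes of the related lists went from 13 to 2 (other early-response), 3 to 0 (NF-κB and cytokine), 3 to 1 (other chaperones) and 5 to 2 (integrated stress and unfolded protein). With no FPKM minimum, the NF-κB and cytokine calls became 7 and the other chaperone calls 5, since genes under 5 FPKM then enter. The directions of *Fos*, *Junb*, *Nr4a1* and *Hsp90ab1* turned on the TPM scale and that of *Fosb* with the median ratio.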

Other observations

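Several genes of the related lists differed by at least 1.5-fold but were under 5 FPKM in both libraries, and they are given as values, chosen after these were seen. Of the NF-κB and cytokine list, the chemokine *Ccl2* was at 0.17 FPKM in GFP-high and 4.08 FPKM in GFP-low and *Lif* at 0.55 and 0.98 FPKM, while *Il1b* was at 2.60 and 1.25 FPKM and *Il6* at 0.71 and 0.46 FPKM. Of the other early-response list, *Batf* was at 2.06 FPKM in GFP-high and 0.75 in GFP-low, *Btg3* at 0.15 and 0.75 FPKM and *Spry4* at 0.98 and 1.5 FPKM. The small heat-shock genes *Hspb2* (0.78 FPKM in GFP-high and 1.18 in GFP-low) and *Hspb7* (0.36 and 0.78 FPKM) were lower in GFP-high, whereas the abundant *Hspb8* of the same list was at 531 and 384 FPKM and *Hspb6* at 20.8 and 20.3 FPKM, both under 1.5-fold. *Slc7a11*, the cystine transporter and a target of ATF4, was at 0.45 FPKM in GFP-high and 2.83 in GFP-low.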
